A study of Mus musculus with 2 samples.

Results

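The regions described here are 1175 peaks of open chromatin found in both replicates, each at most 1 kb from a noncoding RNA gene end and more than 1 kb from every protein-coding gene end. They were 5.01% of the 23452 replicated peaks, meaning entries of the peak list of replicate A that overlapped an entry of the list of replicate B by at least 1 bp. A further 1231 replicated peaks lay within 1 kb of a noncoding and of a protein-coding end, and they are not among the 1175. The other replicated peaks were 8833 at protein-coding gene ends and 13444 away from both kinds of end. The member nearest the 1 kb limit was 998 bp from an end of Gm34712, and its fold enrichment was 21.3 in A and 20 in B, and the nearest replicated peak beyond it was 1004 bp from 4930517G24Rik, with 9.44 and 6.23. The rule used position and presence in both lists, and no height.

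The assay was ATAC-seq, in which Tn5 transposase places sequencing adapters into accessible DNA, on nuclei of hepatic stellate cells, pericytes that line liver sinusoids and store vitamin A. Both libraries, A and B, belonged to 1 group of healthy, chow-fed mice of strain C57BL6/JBomTac, so conditions were not compared. The mice carried the allele Gt(ROSA)26Sortm1(mCherry-Rpl10a-Flop)Kra, written in the labels together with the transgene Tg(Lrat-cre)1Rshw and the background B6.Cg, and nuclei were sorted on mCherry-RPL10A. The Cre recombinase was thus driven by Lrat, a gene of vitamin A storage, and cells that never used that promoter would not be marked. No ages are given, and the labels do not name the animals, so whether A and B differ by animal or only by library is unknown.

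The list of A held 36577 entries and that of B 28794. Peaks of B carry names that start with Oil, although the sample's label reads control and chow. Groups were taken from the labels, and a difference in treatment between A and B was not tested. The lists give no read counts, so the depth of each library is unknown and fold enrichment, the authors' ratio of signal over local background, was not scaled between them. As a check of the labelled cell type, 12 of 12 stellate cell marker genes had a replicated peak at a gene end, against 0 of 8 for hepatocytes, 0 of 8 for Kupffer cells, 0 of 6 for cholangiocytes and 1 of 8 for sinusoidal endothelium (Kdr). All intervals below are 95% intervals and cover counting error only, and genes and peaks are not replicates of a condition.

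Noncoding RNA genes fall into groups that are read by different machinery. Long noncoding RNAs (lncRNAs), most microRNA precursors and the hosts of small nucleolar RNAs (snoRNAs) are made by RNA polymerase II from promoters resembling those of protein-coding genes, and mature microRNAs and many snoRNAs are then cut out of the longer transcript. Transfer RNAs (tRNAs), the 7SK and 7SL RNAs, Y RNAs and vault RNAs are made by RNA polymerase III from very short genes, and tRNA genes hold their promoter elements inside the transcribed part. A replicated peak at a gene end shows accessible DNA there and does not by itself show that the RNA was made.

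The promoters of 6 lncRNA genes with a member over them show how much such promoters differ in sequence. The members at Dancr, Snhg8 and Dnm3os are also at a snoRNA or microRNA gene. 1700003G18Rik (the best rank over both lists) and Dnm3os (a microRNA host) hold neither motif marked below. Kcnq1ot1 holds CCAAT alone, and Dancr, Snhg8 and Oip5os1 hold both motifs, Snhg8 with 4 GC boxes. Each printed promoter is 250 bases before to 50 bases after an annotated start, from RefSeq on GRCm38.p6 (mm10), 5′ to 3′ on the gene's strand. Capitals mark GGGCGG (a GC box) and CCAAT on either strand, so that CCGCCC and ATTGG are the same motifs read from the other strand.
1700003G18Rik, chr7:116093100-116093399, minus strand: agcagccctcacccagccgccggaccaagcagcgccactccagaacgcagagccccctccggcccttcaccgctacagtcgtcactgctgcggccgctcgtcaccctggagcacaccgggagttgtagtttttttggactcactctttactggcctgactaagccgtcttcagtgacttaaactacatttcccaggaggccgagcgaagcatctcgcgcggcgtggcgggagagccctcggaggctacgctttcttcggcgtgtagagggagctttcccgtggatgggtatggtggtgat
Kcnq1ot1, chr7:143296498-143296797, minus strand: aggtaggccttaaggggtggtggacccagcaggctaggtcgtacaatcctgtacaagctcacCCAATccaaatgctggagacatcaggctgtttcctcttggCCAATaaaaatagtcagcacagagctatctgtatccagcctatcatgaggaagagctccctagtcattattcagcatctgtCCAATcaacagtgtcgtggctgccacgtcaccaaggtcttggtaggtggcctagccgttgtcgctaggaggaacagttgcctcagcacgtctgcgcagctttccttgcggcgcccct
Dancr, chr5:74092810-74093109, plus strand: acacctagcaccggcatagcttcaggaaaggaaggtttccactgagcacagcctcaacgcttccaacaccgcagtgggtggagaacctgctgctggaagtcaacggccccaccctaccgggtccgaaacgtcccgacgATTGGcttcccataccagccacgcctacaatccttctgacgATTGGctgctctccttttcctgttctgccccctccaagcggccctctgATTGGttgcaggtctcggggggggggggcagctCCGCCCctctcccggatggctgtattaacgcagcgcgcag
Snhg8, chr3:123508287-123508586, minus strand: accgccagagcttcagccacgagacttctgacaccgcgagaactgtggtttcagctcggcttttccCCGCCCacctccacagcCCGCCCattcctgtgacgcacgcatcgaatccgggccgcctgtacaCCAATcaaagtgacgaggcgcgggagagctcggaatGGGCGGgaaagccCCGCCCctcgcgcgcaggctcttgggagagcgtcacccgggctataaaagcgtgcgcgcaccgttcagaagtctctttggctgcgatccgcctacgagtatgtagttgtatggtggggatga
Oip5os1, chr2:119594046-119594345, plus strand: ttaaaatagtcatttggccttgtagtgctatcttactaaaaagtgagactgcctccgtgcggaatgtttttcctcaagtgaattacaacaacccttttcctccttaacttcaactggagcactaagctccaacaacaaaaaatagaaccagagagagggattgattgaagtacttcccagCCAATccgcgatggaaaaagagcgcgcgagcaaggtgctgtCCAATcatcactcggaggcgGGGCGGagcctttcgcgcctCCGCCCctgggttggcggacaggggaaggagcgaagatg
Dnm3os, chr1:162217373-162217672, plus strand: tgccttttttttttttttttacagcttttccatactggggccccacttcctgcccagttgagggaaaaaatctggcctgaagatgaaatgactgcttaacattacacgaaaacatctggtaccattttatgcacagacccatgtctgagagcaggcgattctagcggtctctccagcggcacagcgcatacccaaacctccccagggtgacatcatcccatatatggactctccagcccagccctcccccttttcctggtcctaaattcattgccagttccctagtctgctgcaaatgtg

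The mature microRNAs below, from RefSeq on the same build, are those of well-known families whose hairpin genes had a member within 1 kb. They are grouped by shared seed (bases 2 to 8, in capitals), the stretch that pairs with target messenger RNAs.
mmu-miR-199a-3p, chr1:162217883-162217904, plus strand: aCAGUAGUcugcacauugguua
mmu-miR-199b-3p, chr2:32318524-32318545, plus strand: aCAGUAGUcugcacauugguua
mmu-miR-132-3p, chr11:75173723-75173744, plus strand: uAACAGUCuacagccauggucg
mmu-miR-212-3p, chr11:75173443-75173464, plus strand: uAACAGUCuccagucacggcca
mmu-let-7c-5p, chr15:85706616-85706637, plus strand: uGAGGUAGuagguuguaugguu
mmu-let-7i-5p, chr10:122985698-122985719, minus strand: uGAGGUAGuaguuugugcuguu
mmu-miR-210-3p, chr7:141221407-141221428, minus strand: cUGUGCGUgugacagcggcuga

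The 1175 peaks were narrow and of middling height. Fold enrichment in A had a median of 11.2, with the middle of the distribution from 8.67 to 14.5 and extremes of 4.09 and 29.0. In B the median was 9.86, the quartiles 8.0 and 12.7, and the extremes 4.64 and 24.1. The median width was 264 bp in A and 238 bp in B. Peaks at protein-coding ends were higher, with medians of 14.4 in A and 13 in B, so that the noncoding median was 0.779 of the protein-coding one in A and 0.760 in B. Against replicated peaks away from both kinds of end, with medians of 10.8 and 9.38, the ratio was 1.03 in A and 1.05 in B. In height the noncoding set thus lay next to the distal peaks. Among the 1000 entries of A with the highest fold enrichment, 26 were members and 798 were replicated peaks at protein-coding ends. Among all 36577 entries of A, 1175 were members and 8833 were replicated peaks at protein-coding ends.

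Replication followed the same order. Of 1846 entries of A at noncoding ends, 1175 overlapped B, or 63.7% (Wilson interval 61.4 to 65.8), beside 64.1% of all entries of A. At protein-coding ends 8833 of 10588 entries overlapped, or 83.4% (82.7 to 84.1), and away from both 55.7% (55.1 to 56.3). The share at noncoding ends was 19.8 points lower than at protein-coding ends (Newcombe interval of the difference, noncoding minus protein-coding, -22.1 to -17.5). It was 7.97 points higher than away from both (5.66 to 10.2). Counted over the shorter list, as entries of B that overlap A, the share at noncoding ends was 83.0% and the difference from protein-coding ends was -7.43 points. Entries of A near both a noncoding and a protein-coding end overlapped B in 86.9% of cases (85.1 to 88.6).

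Peak strength went with the share that replicated. When the entries of A were divided into 4 classes of equal size by their −log10 q, a division made after the data were seen, 33.0% (28.9 to 37.5) of the weakest noncoding entries overlapped B, against 44.1% (41.4 to 46.7) at protein-coding ends and 29.6% away from both. The next classes gave 51.0% and 78.2% for noncoding ends, against 64.3% and 87.2% for protein-coding ends. In the strongest class the shares were 97.3% (95.2 to 98.5) and 99.2% (98.9 to 99.4). Within every class the noncoding share therefore lay below the protein-coding share, with intervals that did not overlap, and the distance was smallest among the strongest entries.

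**Figure D1:**
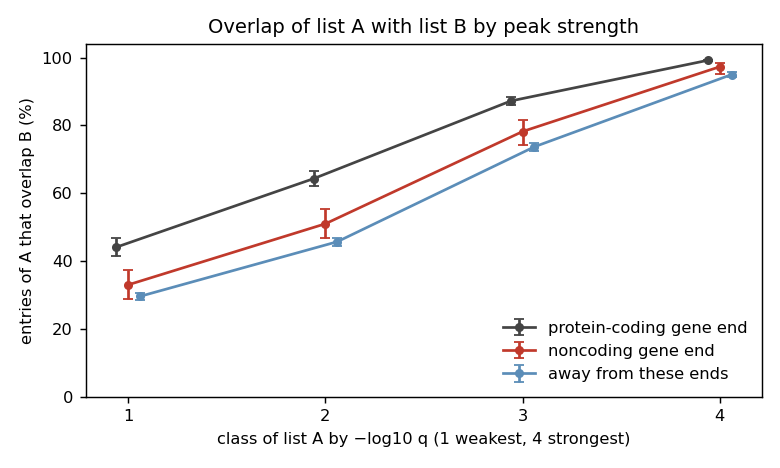
Share of entries of list A that overlap an entry of list B (vertical axis, percent), by class of −log10 q in A (horizontal axis, weakest to strongest); points are shares and bars their 95% Wilson intervals. The 3 classes run in the same order in each class, from 33.0% to 97.3% for noncoding gene ends.

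Between the libraries the members varied about as much as all replicated peaks, whose SD was also 0.40. The ratio of fold enrichment in B to that in A had a median of 0.915, and on the log2 scale a median of -0.13 with an SD of 0.40 over the 1175 members. Fold enrichment was lower in B for 65.0% of members, beside 66.3% of all replicated peaks, and 411 members were higher in B. As a description across peaks, which share their libraries, Spearman's rho between A and B was 0.624 over the 1175 members, 0.757 over peaks at protein-coding ends and 0.564 over those away from both.

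**Figure D2:**
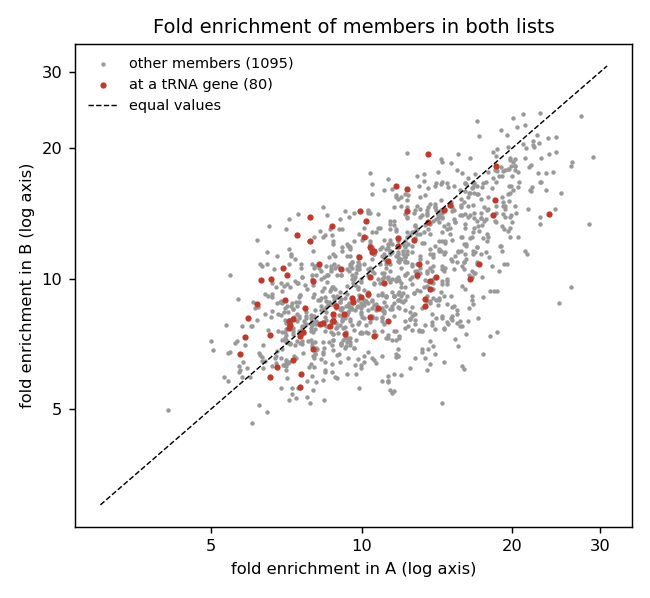
Fold enrichment of each member in list A (horizontal, log axis) and list B (vertical, log axis), 1 point per peak, with the 80 members at tRNA genes in red and a dashed line of equal values. Most points lie below the line, as 65.0% of members were lower in B, and the tRNA members reach neither extreme of the cloud.

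Most members lay outside protein-coding genes. Inside the body of a protein-coding gene were 397 of 1175 (33.8%, 31.1 to 36.5), against 91.8% of replicated peaks at protein-coding ends and 57.1% of those away from both. The other 778 were at a median of 22840 bp from the nearest protein-coding gene body, and 210 of them (27.0%, 24.0 to 30.2) were more than 50 kb away. A member was within 1 kb of 1 noncoding gene in 1070 cases and of several genes in 105, and it touched a gene end itself in 420 cases (35.7%, 33.1 to 38.5). Replicated peaks at protein-coding ends covered an end in 71.8% of cases. By chromosome, members made up between 3.81% (chromosome 9) and 6.58% (chromosome 13) of the replicated peaks.

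In all, 1182 noncoding genes of 16925 in the RefSeq table had a member, 1056 of them 1 member, 123 had 2 and 3 had 3. To compare gene classes, ends within 2 kb of a protein-coding end were set aside. Of the 29411 noncoding ends that remained, 1326 had a replicated peak within 1 kb, or 4.51% (4.28 to 4.75). Protein-coding ends with no noncoding end nearby had one in 20.6% of 40084 cases. The noncoding share moved with the window and with peak strength, from 7.18% with a window of 2500 bp to 2.18% with the stronger entries of each list (at or above its median −log10 q) and 1.15% with the 10000 strongest.

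Among gene classes, tRNA genes were the most often open and snoRNA genes the least. Of 341 tRNA genes away from protein-coding ends, 95 had a replicated peak, or 27.9% (23.4 to 32.8). The share was 8.16% for lncRNA genes (817 of 10009, 7.64 to 8.72), 3.53% for small nuclear RNA (snRNA) genes (33 of 935, 2.52 to 4.92), 3.44% for microRNA genes (34 of 987, 2.48 to 4.78) and 1.02% for snoRNA genes (12 of 1171, 0.587 to 1.78). The tRNA share was 19.7 points above the lncRNA share, a comparison added after the data were seen. The Newcombe interval of that difference was 15.2 to 24.7. With the stronger entries of each list it was 7.70 points (4.68 to 11.6), and with the 10000 strongest 0.784 points, with an interval of -0.582 to 3.18 that includes 0, so among the strongest entries the classes were not told apart. The median fold enrichment at tRNA genes was 9.59 in A, below the 11.3 at lncRNA genes, and in B the medians were alike, 9.82 and 9.80. At snoRNA genes it was 15.8 and 14.7 over 17 members, of which only 6 had no gene of another class within 1 kb, several of the others being at the promoter of the host transcript.

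**Figure D3:**
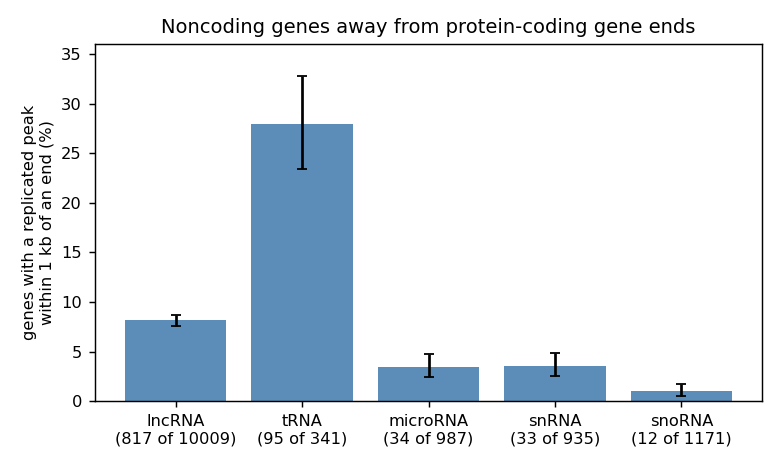
Share of noncoding genes away from protein-coding ends with a replicated peak within 1 kb of an end (vertical axis, percent), by gene class; bars start at 0, error bars are 95% Wilson intervals, and the counts stand under each bar. The tRNA bar, at 27.9%, lies above the others, and its interval does not reach that of lncRNA genes at 8.16%.

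Most members, 1036 of 1175, were at lncRNA genes, at 974 genes of 12727. Where the strand was known, lncRNA 5′ ends were open more often than 3′ ends. A replicated peak lay within 1 kb of 533 of 7881 5′ ends (6.76%, 6.23 to 7.34) and of 234 of 8662 3′ ends (2.7%, 2.38 to 3.06), a difference of 4.06 points that was also compared after the data were seen. With the stronger entries it was 2.39 points, and with the 10000 strongest 1.48 points. At protein-coding genes the shares were 39.6% and 3.65%, so the 3′ ends of both kinds were close together and the 5′ ends far apart. Among 5174 lncRNA genes over 5 kb long with both ends usable, 300 had a peak at the 5′ end alone, 112 at the 3′ end alone and 13 at both.

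The summits also gathered at 5′ ends. For the 604 members whose nearest lncRNA end was a 5′ end, the median summit lay 23.0 bp upstream of the annotated start, and 211 summits (34.9%) were within 100 bp of it. These members covered the end itself in 46.4% of cases. Nearest to a 3′ end were 225 members, of which 1 had its summit within 100 bp and 4.0% covered the end. The median fold enrichment of the 5′ and 3′ members was nearly the same, 11.4 and 11.2 in A and 10.1 and 9.30 in B.

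**Figure D4:**
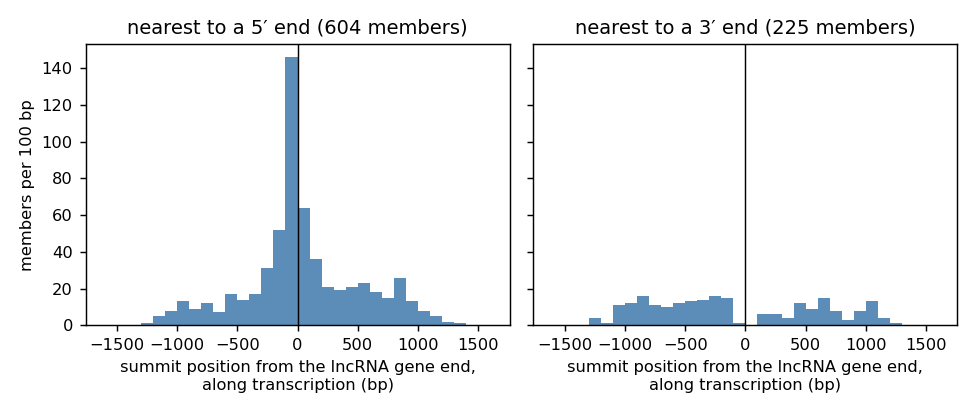
Position of member summits along transcription relative to the nearest lncRNA gene end (horizontal axis, bp, negative upstream), as members per 100 bp (vertical axis), for 604 members nearest a 5′ end (left) and 225 nearest a 3′ end (right). The left panel has a narrow maximum just upstream of 0, and the right panel has no maximum at 0.

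How often a lncRNA gene was open differed between some classes of gene name. Genes named with a Gm number were open in 7.19% of 8217 cases (6.65 to 7.77) and genes named after a Riken clone in 12.4% of 1255 (10.7 to 14.4). Genes with a name of their own were open in 20% of 180 cases (14.8 to 26.4), and snoRNA or microRNA hosts in 6 of 20, or 30% (14.5 to 51.9). These naming classes were set after the data were seen.

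The members of best mean rank over both lists were nearly all at uncharacterised lncRNA genes. The first was 1700003G18Rik, whose promoter is printed above, with a peak at chr7:116093078-116093408 inside the gene 1110004F10Rik that reached 27.5 in A and 23.7 in B. Gm33628 followed, at chr12:108757939-108758312, with 24.5 and 21.2. Next came 5430416N02Rik, at chr5:100429452-100429789, with 22.7 in A and 24.1 in B, the highest value of any member in B. Both of these peaks covered a gene end and lay outside protein-coding genes. The highest value in A was at Snhg7os, with 29.0, and it was 19.1 in B, at chr2:26646914-26647222 and 970 bp from the end of the gene. Of the other members among the 10 best, the peak at 4930467K11Rik lies inside Hsf2, which encodes a heat shock factor. The peak at Gm46766 lies inside Cds2, which encodes an enzyme of phospholipid synthesis. The rest were Gm10433, 1700012D14Rik, Dancr with Snora26, and 1700096K18Rik, all outside protein-coding genes.

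At the low end stood Gm34077 (5.40 in A, 5.79 in B), Gm32422 (6.03 and 4.64) and 2410080I02Rik (4.09 and 4.98). In both libraries these were below the lower quartile of the members. The widest members were not the highest ones. They were at 2900024J01Rik (792 bp, fold enrichment 11 in A and 8.16 in B), Gm35607 (771 bp, 9.89 and 10.8), A230028O05Rik (724 bp, 9.42 and 8.80), Gm51820 (706 bp, 7.19 and 7.11) and Gm35248 (705 bp, 8.89 and 8.62). The peak at Gm51820 lies inside Lrp1, an endocytic receptor gene, and that at Gm35248 inside Klf10, a TGF-beta-induced transcription factor gene.

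The 3 genes with 3 members each were Mir5620, Gm23296 and LOC115488100, and the last 2 are snRNA genes that share the same 3 peaks. At Mir5620, inside the chloride transporter gene Clcn4, the peaks had 8.35, 6.47 and 13.2 in A, against 12.5, 11.5 and 7.57 in B. Neighbouring peaks at 1 gene thus differed in opposite directions between the libraries. Of the genes with 2 members, Gm31936 had 20.6 and 7.42 in A with 12.5 and 9.79 in B, and 1810019N24Rik had 19.2 and 11 in A with 17.7 and 6.64 in B.

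Among 19 lncRNA genes known for roles in the nucleus or in RNA structure, 11 had a member, 1 (Tug1) had a replicated peak that was also at a protein-coding end, and 7 had none. Of all 12727 lncRNA genes in the table, 974 had a member, or 7.65% (7.20 to 8.13). Kcnq1ot1, which silences genes of its imprinted domain in cis, had the highest value in A, with 25.1 in A and 15.8 in B at chr7:143296488-143296827. That peak covers the whole promoter printed above, with its 3 CCAAT matches. Oip5os1, a conserved lncRNA that directs the decay of miR-7, had 21.8 and 15.9 at chr2:119594075-119594365. Firre, which helps to organise nuclear chromatin, had 17.8 and 12.7, and Jpx, an activator of Xist, had 15.7 and 16.0. All 4 of these peaks covered or touched the 5′ end.

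Values at other genes of the list ranged widely. Airn, which silences Igf2r in cis, had 9.05 in A and 13.7 in B. Malat1, an abundant RNA of nuclear speckles, had 8.86 and 9.48 at chr19:5803473-5803786, a peak that starts 801 bp upstream of the annotated 5′ end. Neat1, the scaffold of paraspeckles, had 7.39 and 5.30 over a peak of 634 bp that touches an end of the gene. These values of Malat1 and Neat1 were below the member medians of 11.2 and 9.86 in both libraries. Peg13, an imprinted lncRNA, had 13.9 and 11.2, and Dancr, which restrains the differentiation of progenitor cells, had 22.6 and 20.6. The longest genes of the group without a replicated peak at an end were Ftx (62845 bp) and Tsix (53441 bp), both of the X inactivation centre.

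Of 34 genes listed as hosts of snoRNAs and microRNAs, 13 had a member, beside the 7.65% of all lncRNA genes, 5 more (Gas5, Snhg1, Snhg6, Snhg18 and Zfas1) had a replicated peak shared with a protein-coding end, and 16 had none. The 34 include Mir703, a microRNA gene and not a host, which had none. Snhg12 had 22.8 in A and 13.4 in B. Snhg8, with 4 GC boxes in the promoter printed above, had 20.1 and 23.5, and Snhg15 had 19 and 22.1. The peaks of Snhg8 and Snhg15 ranked higher in B than in A, and that of Snhg12 lower. Further values were 16.3 and 14.7 at Snhg9, 14.6 and 10.4 at Snhg17 and 14.5 and 16.7 at Snhg5. The longest hosts without a peak were Snhg14 (1177441 bp), which carries snoRNA clusters of an imprinted region, and Mir100hg (238660 bp).

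Dnm3os, the host of miR-199a-2 and miR-214 that runs opposite to Dnm3, had a member at each end. The peak at its 5′ end, chr1:162217472-162217740, had 14.3 in A and 11.7 in B. The peak beyond its 3′ end, chr1:162225944-162226154, had 9.66 and 6.92. The 5′ peak was thus the higher of the 2 in both libraries. It is also the member of Mir199a-2, whose hairpin starts 74 bp beyond it.

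The listed antisense and divergent partners of developmental transcription factor genes were too few to compare with lncRNA genes as a whole, of which 7.65% had a member. The rule also leaves out any peak within 1 kb of a protein-coding end. Of 25 genes, 2 had a member, 5 had a replicated peak that was also at a protein-coding end (Hand2os1, Foxd2os, Tbx3os1, Gata6os and Emx2os) and 18 had none, the longest of them Nkx2-2os and Pax6os1. Hotairm1, of the HoxA cluster, had 7.38 in A and 6.57 in B. Fendrr, transcribed away from Foxf1, had 7.01 and 7.29 at chr8:121055535-121055805, a peak near its 3′ end. All 4 values lay below the lower quartile of the members in their library.

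The protein-coding gene nearest to a member was one of the 30 stellate cell genes listed for 7 members, or 0.596% of them. These genes make up 0.137% of the protein-coding genes in the table. The first is a share of peaks and the second a share of genes, so together they do not measure an excess. The same share over all replicated peaks is not given here. The 7 members were at 4 genes, which encode transcription factors. The peak at Gm10824, 3381 bp from Tcf21, had 7.08 in A and 9.70 in B, and that at Gm27197, inside Lhx2, had 9.46 and 11.7. Inside Nfia, a nuclear factor I gene of 540811 bp, lay a peak at Gm38709 (9.11 and 8.98) and 2 at Gm19417 (9.97 and 8.39, 6.70 and 6.57). Near Foxf1 were those of Gm46071 (9.04 and 6.40) and Fendrr. In A these 7 values were all below the member median, and in B that at Gm27197 alone was above it.

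The 80 members at tRNA genes reached 103 of the 408 tRNA genes. Their median width was 210 bp, against 267 bp at lncRNA genes, and 60 of the 80 covered a tRNA gene end. A member lay at 1 tRNA gene in 43 cases, at 2 in 26 and at 3 or more in 11, up to 4, since tRNA genes cluster. The genes with a member carried 37 of 48 anticodons and served 18 of the 20 amino acids in the table. Inside protein-coding genes were 11.2% of these members, against 33.9% of those at lncRNA genes. Copies of a tRNA gene can be identical over their length, and the sources used here do not say how reads that match several copies were placed, so an open and a closed copy may not be told apart.

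The share of open genes varied between amino acids, over few genes each. Of tRNA genes away from protein-coding ends, those for glutamate were open in 9 of 16 cases (56.2%, 33.2 to 76.9), for threonine in 53.8% (29.1 to 76.8), for proline in 53.3% (30.1 to 75.2), and for histidine (5 of 10) and tyrosine (3 of 6) in 50% each. Apart from cysteine and tryptophan, the lowest shares were those of lysine with 12.5% (4.34 to 31), serine with 14.3% (4.01 to 39.9) and methionine with 15.4% (4.33 to 42.2). Intervals of neighbours in this order overlap widely. None of the 56 cysteine and 8 tryptophan genes in the table had a member. Of the cysteine genes, 48 lie on chromosome 6, where none of 53 tRNA genes had a member, whereas 25 of 105 had one on chromosome 13. Without the cysteine genes the share open was 32.8% of 290.

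**Figure D5:**
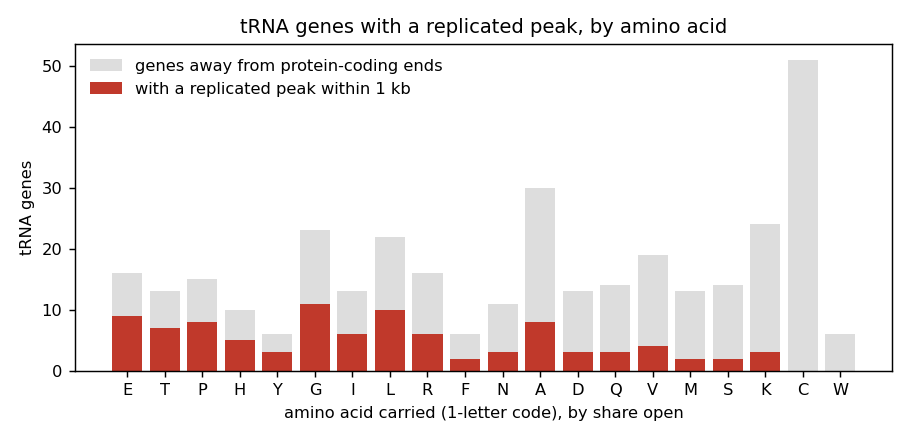
Number of tRNA genes away from protein-coding ends (grey bars, vertical axis) and of those with a replicated peak within 1 kb (red), by amino acid in 1-letter code (horizontal axis), ordered by the share with a peak. Glutamate (E) stands first with 9 of 16, and the many cysteine genes (C) have no red part.

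Single tRNA genes spanned a wide range of heights, and the first 3 below were picked for the highest values in A. The first was n-TQttg6, a glutamine gene at chr11:95859172-95859243, whose peak 156 bp away had 23.7 in A and 14.1 in B. That peak also lies over the promoters of the lncRNA genes 4833417C18Rik and Gm38959, so its height is not that of the tRNA gene alone. The arginine gene n-TRtcg5, at chr7:79466419-79466491, lay inside its peak, with 18.6 and 18.2. The threonine gene n-TTcgt3, at chr11:79704650-79704721, had 18.5 and 15.2 in a peak that also lies over the promoter of Gm11205. The order of heights was not the same in B, where the asparagine gene n-TNgtt14, whose peak is also at 2310047D07Rik, had 19.4 against 13.6 in A.

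Some of the listed genes of small structural RNAs were at high peaks. Of the 20 genes listed, 7 had a member, 6 had a peak shared with a protein-coding end (Rmrp, Rpph1, Rn7s1, Rnu7, Scarna13 and Bc1) and 7 had none, the longest being Terc, the telomerase RNA gene, and Rnu1b1. A member was found at 6.98% of all noncoding genes and at 3.39% of snRNA genes. Rnu2-10, a gene of the spliceosomal U2 RNA, had 21.4 in A and 11.4 in B. Rn7sk, the RNA that holds the elongation factor P-TEFb inactive, had 19 and 18.1 over the gene and 9.97 and 8.55 at a smaller peak 203 bp beyond it. Both peaks are also within 1 kb of an end of C920006O11Rik. The large peak of Rn7sk was alike in both libraries, and that of Rnu2-10 was 0.535 times as high in B. Rn7s2, a gene of the signal recognition particle RNA, had 17.7 and 13.7. Vaultrc5, the vault RNA gene, is classed as a lncRNA gene in RefSeq and had 17.0 and 15.7. Scarna2, a guide RNA of the Cajal body, had 17.6 and 14.6. The Y RNA gene Rny1 was low, with 7.19 and 7.07, and the spliceosomal gene Rnu5g had 11 and 8.11.

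Among other short genes, values differed between the libraries to varying degrees. Gm26316, an snRNA gene, had 24.8 in A but 8.80 in B, a ratio of 0.355 that was the lowest of all members. The peak at Snord49a and Snord49b, which is also at the lncRNA gene 2410006H16Rik, had 23.4 and 16.0. That at Snord104 and Gm22711, which also lies over the promoter of Gm36220, had 22.7 and 16.7. The U3 RNA genes Rnu3b1 to Rnu3b4, which serve ribosomal RNA processing, lie together inside Tex14 and had 19.8, 17.9, 17.0 and 17.1 in A with 12.5, 12.5, 13.6 and 13.2 in B. The 4 were thus alike within each library and lower in B. They are copies of the U3 gene, and how alike their sequences are was not tested. The values of Rnu3b1 and Rnu3b2 in B share the −log10 q of 26.3, so the 4 should not be read as separate measurements.

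MicroRNA genes had 40 members at 39 genes of 1228, and 70.0% of these members lay inside a protein-coding gene. The table lists hairpins, so a member at one is not necessarily the promoter of the primary transcript. Of the 39 genes, 34 matched a mature sequence. Among 49 microRNA genes linked to fibrosis, 3 had a member (Mir199a-2, Mir132 and Mir212) and 46 had none, among them Mir214 and Mir10a. The like count over all microRNA genes is the 39 of 1228 with a member. Of the 987 microRNA genes away from protein-coding ends, 3.44% had a replicated peak.

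The highest value of a microRNA gene was at Mir6236, with 28.5 in A and 13.4 in B over an entry of only 24 bp, the one member under 100 bp. The height of so short an entry is uncertain. Mir210, the hypoxia-induced microRNA gene, had 19.4 and 14.5 at chr7:141221711-141222180, 218 bp from the hairpin. Mir1905 had 16.7 and 14.8, Mir8119 had 16.4 and 8.56, Mir5110 had 15.1 and 18.5, and Mir3092 had 14.6 and 7.69. Of these only Mir5110 was higher in B. Mir7688 (14.0 and 7.64), Mir7653 (13.6 and 9.85), Mir1893 (13.1 and 14.5) and the 3 peaks of Mir5620 complete the 12 highest genes in A.

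The printed microRNAs were chosen for having a member, so only the heights differ between genes that share a seed. Mir199a-2 had 14.3 in A and 11.7 in B, and Mir199b, whose mature 3p sequence is the same and which lies inside Dnm1, had 11.3 and 7.27 at chr2:32318052-32318286. Both peaks were lower in B. Mir132 and Mir212, whose 3p forms share the seed AACAGUC, lie side by side and share a member, with 7.46 and 9.75. Mirlet7c-2 had 14.1 and 13.7, and Mirlet7i, with the same GAGGUAG seed, had 6.88 and 9.79. Mir30d, of another family, had 8.36 and 14.6. Mir199b, Mirlet7i and Mir30d were chosen after their values were seen.

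The promoters under the members stood between closed noncoding promoters and open protein-coding ones in base composition. Over 411 promoters of 359 noncoding genes with a member over them, the median GC content was 56.0%, against 47.7% in 10556 noncoding promoters with no replicated peak and 62.3% in 7942 protein-coding promoters with one. The ratio of observed to expected CpG was 0.49, against 0.23 and 0.81. It was over 0.6 in 42.8%, 8.60% and 82.4% of the promoters. As a plain count, the median promoter with a member held 11 CpG, against 4 and 23. Of the printed sequences, Snhg8 holds 30 CpG, 1700003G18Rik 24, Dancr 18, Oip5os1 15, Kcnq1ot1 9 and Dnm3os 5. By count these promoters thus reach from near the median of closed noncoding promoters to above that of open protein-coding ones. The member over 1700003G18Rik, the best-ranked of all, holds neither GGGCGG nor CCAAT in these 300 bases, and neither does the one over Dnm3os.

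GC-rich motifs were more frequent under the members than in closed noncoding promoters, and AT-rich ones less. The GC box, GGGCGG on either strand, was in 44.0% (39.3 to 48.9) of the noncoding promoters with a member, 11.8% of those with no peak, 72.4% of open protein-coding promoters and 35.7% of all 32851. The ETS motif CCGGAAGT was in 4.14% (2.60 to 6.52), against 1.05%, 10.6% and 3.89%. CCAAT differed less, with 39.7% (35.0 to 44.5), 35.7%, 43.7% and 37.4%. In the other direction went the AT-rich TAATTA of homeodomain factors, with 2.68% (1.5 to 4.73), 7.19%, 1.86% and 5.29%, and the GATA motif AGATAAG, with 1.22% (0.521 to 2.82), 4.03%, 1.52% and 3.04%. TTGGCA, a motif of nuclear factor I, was in 16.5% (13.3 to 20.4) and 16.4% of noncoding promoters with and without a peak, and in 10.5% and 14.1% of the others. TGANTCA, the AP-1 motif, was in 8.03% (5.77 to 11.1), 9.73%, 3.97% and 7.81%. Both strands were searched and motifs may overlap each other. A match is a description of the letters and not of binding, and GC content differed between the sets, so its part in these shares was not tested.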

How the data were processed

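Each of the 2 libraries, A and B, has 1 deposited peak list without a header line. Per the submitters' processing notes, the tools were MACS2, HOMER, STAR 2.7.0, Picard, SAMtools and bedtools, listed without roles, and the build was mm10. Any shift of reads for Tn5, and any cleaning of the lists, was not given in the sources used here. A single-cell expression kit is also named in the labels' protocols, with no role stated. For each peak the authors deposited a score, a fold enrichment over local background (a linear ratio), the −log10 p and −log10 q, and the summit offset. The score and the −log10 p were not used.

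The entry of A that overlapped an entry of B by at least 1 bp gave the coordinates of a replicated peak, 1-based. Gene spans came from a RefSeq table of GRCm38.p6, and strands from a RefSeq promoter table where a gene was in it (9533 of 12727 lncRNA genes). Exons were not told apart from introns. Distances were from the nearest base of a peak to a gene end. Shares have Wilson intervals and differences of shares Newcombe intervals. No p-values were computed, since 2 libraries of 1 group allow no test between groups, and precision per peak is unknown because no read counts were given. The computations ran in Python 3.11.15 with pandas 2.3.3, numpy 2.4.6, matplotlib 3.10.9 and scipy 1.17.1, and the functions were tested on simulated data.

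The members, the 6 gene lists, the cell type markers and the 13 motifs were chosen with earlier results of these data known. The genes named are the 10 members of best mean rank and the 3 of lowest, the 5 genes with the most members, the 5 widest members, up to 12 microRNA and 8 other short genes by fold enrichment in A, up to 8 open genes and 2 closed ones (the longest) per list, and the members on either side of the 1 kb limit. Malat1, Neat1, the Rnu3b genes and the tRNA genes lie beyond this rule. They, and others marked in the text, were added after their values were seen. Rmst, Epb41l4aos and Snora16a meet the rule and are not described. The comparisons of gene classes, naming classes, 5′ with 3′ ends, classes of strength and base composition were also added after the values were seen. Alternatives changed the threshold, overlap, window, peak position, gene classes, split entries, the list that gives the coordinates and the replicates used.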

Additional observations from a re-analysis of the deposited data

How the results depend on the processing

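Over 8 results and 11 alternatives, 81 values could be had. Of these, 51 stayed within their spread or interval (the number of members, within 1.5 times), 30 moved by more, and 0 changed sign. A change of sign was possible only for the differences of shares and, as a crossing of 1, for the ratios of medians. The number of members and the plain shares could not change sign. Keeping entries at or above the median −log10 q of their list left 549 members, ratios of noncoding to protein-coding medians of 0.837 (A) and 0.842 (B), 2.18% of eligible ends open, 7.70 points between tRNA and lncRNA genes and 2.39 points between 5′ and 3′ ends. Keeping the 10000 strongest entries of each list left 294 members, ratios of 0.913 and 0.887, 1.15% of ends, and 0.784 points (interval -0.582 to 3.18, which includes 0) and 1.48 points. Fewer entries are compared in both by construction; why the tRNA difference shrank more than the others was not tested. With 50% reciprocal overlap, 58.6% of noncoding entries of A overlapped B and 4.14% of ends were open. A window of 500 bp gave 66.0% and 3.47%, and one of 2500 bp gave 61.3% and 7.18%. With the middle of the entry 4.17% of ends were open, and without tRNA and rRNA genes 3.97%. Counted as entries of B that overlap A, the share was 83.0% and the difference from protein-coding ends -7.43 points. Using 1 list alone, with no overlap asked, gave 1419 to 1846 members, ratios of 0.728 in A and 0.743 in B, 5.23% to 6.85% of ends, 22.5 to 25.2 points between tRNA and lncRNA genes and 4.74 to 5.43 points between 5′ and 3′ ends. No paired analysis was possible because both libraries belong to 1 group. Depth limits what can be said of peaks found in 1 list, since no read counts were given: absence from a list is not absence of open chromatin.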

Other observations

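Short snRNA genes of 191 bp gave the members that differed most between the libraries, and they were looked up after their values were seen. Over the peaks that touch the gene, fold enrichment was 24.8 in A and 8.80 in B at Gm26316, 18.1 and 7.37 at Gm23472, and 17.5 and 6.68 at Gm24497. The other 4 genes of this length had 14.5 and 12.2 (Gm25939), 12.7 and 8.30 (Gm24950), 12.6 and 8.58 (Gm23971) and 9.04 and 10.5 (Gm25360). All but Gm25360 were thus lower in B, with ratios of B to A from 0.355 to 0.840. Of all replicated peaks, 66.3% were lower in B, with a median ratio of 0.901, and fold enrichment was not scaled between the lists. At Gm23472 and Gm24497 a second peak beside the gene went the other way, with 7.98 and 9.07 and with 11.8 and 15.3. The 7 genes lie on chromosomes 1 and 11. Whether they are near-identical copies was not tested.

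Of the 1182 noncoding genes with a member, some share their peak: 26 of the 80 members at tRNA genes were also at a gene of another class. Looking at 1 list at a time, 128 of 341 tRNA genes (37.5%) had an entry of A within 1 kb and 109 (32.0%) an entry of B, and 95 had a replicated peak. For lncRNA genes 1231 of 10009 (12.3%) had an entry of A, 947 (9.46%) an entry of B and 817 a replicated peak. The tRNA share was thus above the lncRNA share in each list alone.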
